A study of Rattus norvegicus with 9 samples.

Results

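Gene expression of rat pancreatic stellate cells on a collagen I coating was compared with that on uncoated plastic, with 3 arrays of cells labelled Collagen and 4 labelled Plastic out of 9 arrays in the series. The arrays were chosen by these labels alone, and each of the 14506 genes is represented by the probe set entry with the highest mean over all 9 arrays. The cells came from male Sprague Dawley rats, whose age the labels do not give, and were isolated on a Nycodenz density gradient. All dishes of 10 cm were seeded with the same number of cells and kept in Iscove's medium with 10% foetal bovine serum for 72 hours, so the surface is the stated difference between the groups. The other 2 arrays, with letters A and S, are of cells on Matrigel and enter here only where collagen I is set against that surface. Total RNA was measured on Affymetrix Rat Gene 1.0 ST whole-transcript arrays. Each title carries a letter whose meaning the labels do not state: A, P and Z on collagen I and A, P, S and Z on plastic. Arrays are named below by surface and letter, and values are always listed in that order. The labels do not say whether the arrays came from separate animals, so each p-value reflects only the spread among the arrays at hand, which may be technical.

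Stellate cells of the pancreas lie around the acini. At rest they hold retinoid in lipid droplets, and in disease they become matrix-depositing myofibroblasts in pancreatitis and around pancreatic tumours. Collagen I is the fibrillar collagen of that scar tissue. Cells bind it through the beta 1 integrins with an alpha 1, alpha 2, alpha 10 or alpha 11 chain and through the discoidin domain receptor tyrosine kinases, and such binding feeds into kinase cascades that switch on immediate-early transcription factors, matrix-degrading enzymes and secreted signals. Plastic is a stiff surface on which isolated stellate cells activate by themselves, so plastic-grown cells are not a quiescent reference.

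Values are log2 expression, on which a difference of 1 is 2-fold. Of 14506 genes tested with limma at a Benjamini-Hochberg adjusted p under 0.05, 888 differed between the surfaces, which is 6.12% of all genes, 428 higher on collagen I (2.95%) and 460 lower (3.17%). The difference was at least 2-fold for 316 of them, 157 higher and 159 lower, and at least 4-fold for 35 and 38. At the other end, 311 called genes differed by less than 1.5-fold. The median difference over all genes was 0.00. The collagen I and plastic values did not overlap for 887 of the 888 called genes and for 17.2% of all genes. Array medians lay between 5.30 and 5.38, and the correlation across genes, which are not independent replicates, was 0.991 to 0.996 within a surface and 0.978 to 0.988 between collagen I and plastic arrays. Without collagen P 555 genes differed and without plastic A 552, against 610 to 732 without any other single array, and 447 genes were called in every fit that left out 1 array. In bulk RNA, fewer cells of a type and less RNA per cell cannot be told apart.

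**Figure D1:**
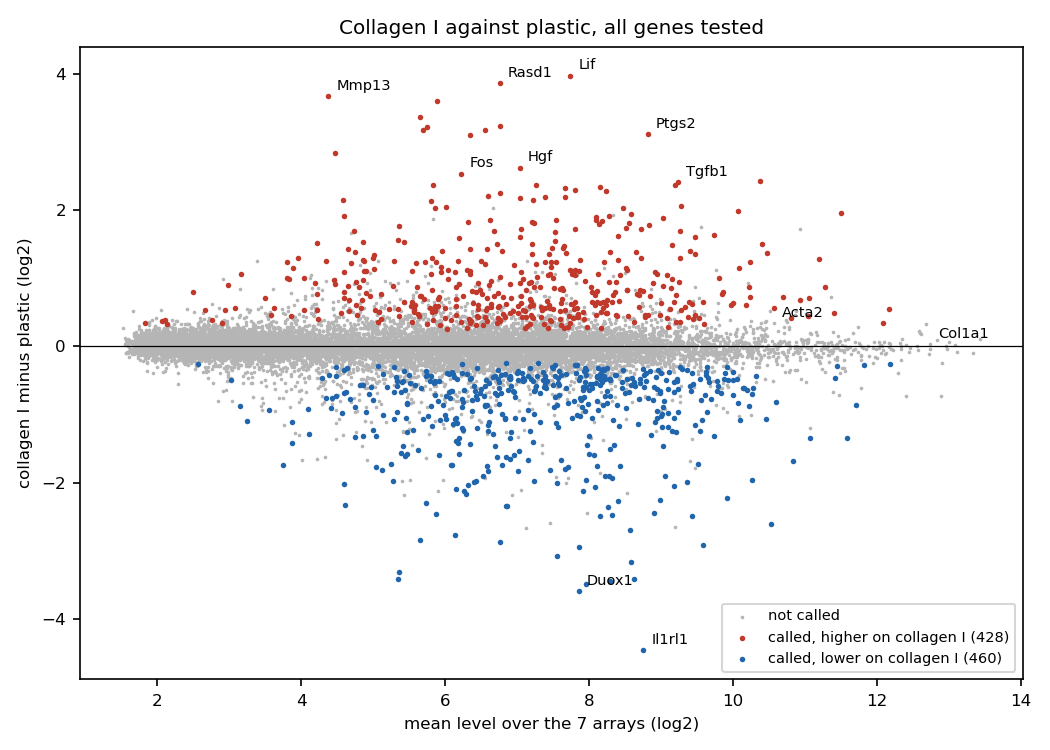
Difference between collagen I and plastic (vertical axis, log2) against the mean level of each gene over the 7 arrays (horizontal axis, log2), with 1 point per gene and called genes in colour. The 428 higher and 460 lower genes reach from -4.46 to 3.97, and the cloud of all genes is centred on 0.00.

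Means under log2 4.25, the level below which 40% of genes lay, are called dim here. Of all 14506 genes 5695 were dim on both surfaces, and only 21 of the 888 called genes were among them. The share of 6.12% set beside the lists includes these dim genes. A list with few dim members can therefore stand above that share without standing above other genes that are not dim. Where 1 surface is dim, the difference is printed as a lower bound without an error, in which each array of that surface counts at the higher of its own value and 4.25 before averaging.

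The highest rise of any gene was that of Lif (Entrez gene 60584), which encodes leukaemia inhibitory factor, a cytokine of the interleukin 6 family. It read 9.84, 10.14 and 10.04 on collagen I and 5.71, 6.16, 6.02 and 6.25 on plastic, so that all collagen I arrays lay more than 3 log2 units above every plastic array. Its difference was 3.97 ± 0.16 (log2, SE; adjusted p = 1.76e-05 by limma). The family members Il6 and Il11 rose with it. Il6, the acute-phase cytokine gene, read 9.32, 9.46 and 9.33 on collagen I and 7.50, 7.09, 7.93 and 7.30 on plastic, a rise of 1.92 ± 0.18 (adjusted p = 0.000667). Il11, a profibrotic relative, read 7.01, 7.37 and 6.72 on collagen I and 4.93, 4.72, 4.96 and 4.96 on plastic, a rise of 2.14 ± 0.15 (adjusted p = 0.000197). Neither overlapped between the surfaces, and the collagen I arrays of Il6 stood close together. The receptor genes of these cytokines, Lifr, Il6r and Il11ra1, and the shared chain gene Il6st did not pass, with differences of -1.12, -0.5, -0.06 and -0.33. Of other receptor and signal genes of the family, Osmr, which encodes the oncostatin M receptor chain, fell by 0.88 ± 0.13 (adjusted p = 0.00459). The kinase gene Jak1 fell by 0.51 ± 0.10 (adjusted p = 0.0212) and the transcription factor gene Stat3 by 0.47 ± 0.10 (adjusted p = 0.0232). Of 23 measured genes of the family and its signal path, 4 rose and 3 fell, 30.4% against 6.12% of all genes, with a median difference of -0.09 against 0.00. The count of members that fell was 1 without collagen A, collagen P, collagen Z, plastic A or plastic Z. Jak1 did not pass without collagen A, collagen P, collagen Z, plastic A or plastic Z (adjusted p from 0.0526 to 0.0809). Stat3 did not pass without any single one of the 7 arrays or with the letter as a fixed block (adjusted p from 0.0506 to 0.0886).

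The strongest fall of any gene was that of Il1rl1 (Entrez gene 25556), which encodes the interleukin 33 receptor ST2. It read 6.0, 6.88 and 5.72 on collagen I and 10.60, 11.20, 10.22 and 10.64 on plastic, a fall of 4.46 ± 0.40 or 22.1-fold (adjusted p = 0.000549). Of interleukin 1 family and NF-kB genes more rose than fell. Of 26 measured members 9 rose and 2 fell (42.3% against 6.12% of all genes, median difference 0.29). The alarmin gene Il1a read 8.14, 8.38 and 9.28 on collagen I and 7.03, 6.23, 7.27 and 6.44 on plastic, a rise of 1.86 ± 0.32 (adjusted p = 0.0104), and Il1rn, which encodes the interleukin 1 receptor antagonist and was dim on plastic, rose by at least 1.42 (adjusted p = 0.00209). Nfkbiz, which encodes IkB zeta, a nuclear protein of the IkB family, read 9.55, 9.70 and 9.65 on collagen I and 7.50, 7.56, 7.56 and 7.79 on plastic, a rise of 2.03 ± 0.11 (adjusted p = 4.8e-05). Its arrays stood close together on each surface. Nfkbia, the IkB alpha gene, rose by 1.5 ± 0.21 (adjusted p = 0.00408), Tnip1 by 0.66 ± 0.11 (adjusted p = 0.00870) and the subunit gene Nfkb2 by 0.52 ± 0.09 (adjusted p = 0.0122). Of the receptors for tumour necrosis factor, Tnfrsf1a fell by 0.46 ± 0.08 (adjusted p = 0.0125) while Tnfrsf1b rose by 0.76 ± 0.17 (adjusted p = 0.0337). Nfkb2 did not pass without collagen P or collagen Z (adjusted p from 0.0524 to 0.0572). Tnfrsf1a did not pass without collagen Z (adjusted p = 0.0511). Tnfrsf1b did not pass without collagen A, collagen P, collagen Z, plastic P or plastic Z, with only the arrays of the compared surfaces in the fit or with every entry of the table tested (adjusted p from 0.0534 to 0.113).

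Neutrophil-attracting chemokines and granulocyte growth factor were among the secreted signals that rose. Cxcl1 read 11.41, 11.17 and 11.17 on collagen I and 9.80, 9.74, 9.96 and 10.02 on plastic, a rise of 1.37 ± 0.09 (adjusted p = 0.000197), and Cxcl2 8.34, 7.94 and 8.59 on collagen I and 6.37, 5.65, 6.64 and 5.77 on plastic, a rise of 2.18 ± 0.26 (adjusted p = 0.00199). Cxcl16, a membrane-bound chemokine and scavenger receptor, rose by 1.98 ± 0.18 (adjusted p = 0.000615), and Ccl2, the monocyte chemoattractant gene, which was already bright on plastic (from 12.40 to 12.53 on collagen I and from 11.76 to 12.12 on plastic), by 0.54 ± 0.09 (adjusted p = 0.00851). The receptor gene Ackr3, whose product removes the chemokine Cxcl12, fell by 1.97 ± 0.19 (adjusted p = 0.000720). In all, 5 of 24 measured chemokine genes rose and 1 fell (25% against 6.12% of all genes, median difference 0.29). Csf3, the granulocyte colony-stimulating factor gene, read 8.54, 7.40 and 6.60 on collagen I and 4.57, 4.06, 4.85 and 3.85 on plastic. Its collagen I values spread over almost 2 log2 units, with letter A highest and letter Z lowest, yet the lowest stood above every plastic value, and the difference was 3.18 ± 0.46 (adjusted p = 0.00464). Kitlg, the stem cell factor gene, rose by 1.10 ± 0.21 (adjusted p = 0.0152) and Angptl4, which encodes an inhibitor of lipoprotein lipase, by 1.37 ± 0.24 (adjusted p = 0.0120). Of 12 such growth factor genes 3 rose and 0 fell by limma (2 lower at an unadjusted p under 0.05). Kitlg did not pass without collagen Z (adjusted p = 0.0576). Angptl4 did not pass without collagen P (adjusted p = 0.0521).

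At each step from membrane lipid to prostaglandin E2 an enzyme gene rose. Other enzyme genes of these steps, Pla2g2a, Ptgs1, Ptges2 and Ptges3, did not pass, with differences of -1.31, 0.93, 0.06 and 0.07. Pla2g4a, the cytosolic phospholipase that frees arachidonic acid, rose by 1.04 ± 0.10 (adjusted p = 0.000856). Ptgs2, the inducible cyclooxygenase gene, read 10.26, 10.74 and 10.80 on collagen I and 7.60, 7.40, 7.39 and 7.51 on plastic, a rise of 3.12 ± 0.15 or 8.70-fold (adjusted p = 3.18e-05). Ptges, the microsomal prostaglandin E synthase gene, read 11.35, 11.18 and 11.25 on collagen I and 9.72, 9.73, 9.57 and 10.04 on plastic, a rise of 1.5 ± 0.15 (adjusted p = 0.000796), and the receptor gene Ptger4 rose by 1.10 ± 0.25 (adjusted p = 0.0350). Slco2a1, which encodes a prostaglandin uptake carrier, was dim on both surfaces and lower on collagen I (from 2.39 to 2.88 on collagen I and from 3.34 to 4.05 on plastic; adjusted p = 0.00924). Of 24 eicosanoid genes measured, 4 rose and 1 fell (20.8% against 6.12% of all genes), with a median difference of 0.07. Ptger4 did not pass without collagen A, collagen P, collagen Z, plastic A or plastic P or with every entry of the table tested (adjusted p from 0.0534 to 0.106).

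**Figure D2:**
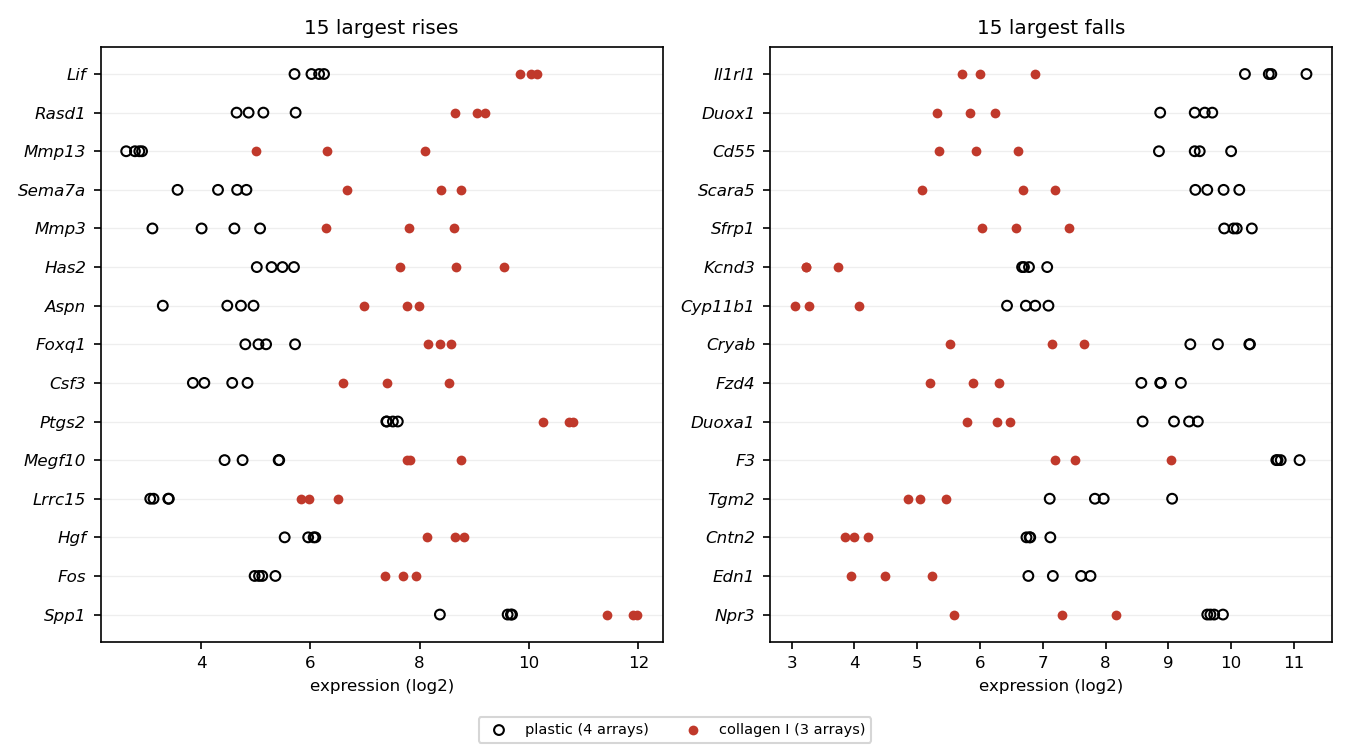
Log2 expression on each array (horizontal axis) of the 15 genes with the largest rise and the 15 with the largest fall. Filled points are the 3 collagen I arrays and open points the 4 plastic arrays. Lif and Kcnd3 show tight groups far apart, whereas Mmp13 and Csf3 spread widely on collagen I.

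Immediate-early transcription factors, which growth factor and adhesion signals switch on within minutes in other settings, were higher after these 72 hours on collagen I. Of 24 such genes 9 rose and 1 fell (41.7% against 6.12%), with a median difference of 0.40. The AP-1 subunit gene Fos read 7.70, 7.94 and 7.37 on collagen I and 4.98, 5.06, 5.12 and 5.36 on plastic, a rise of 2.53 ± 0.16 (adjusted p = 0.000143), and its partner gene Jun 7.80, 8.11 and 8.24 on collagen I and 5.59, 5.67, 5.83 and 6.09 on plastic, a rise of 2.26 ± 0.14 (adjusted p = 0.000143). Neither overlapped. Junb rose by 0.81 ± 0.10 (adjusted p = 0.00209), and Fosl1 differed by 0.66 ± 0.17 (adjusted p = 0.0656). The orphan nuclear receptor genes Nr4a1 and Nr4a2 rose by 2.28 ± 0.27 (adjusted p = 0.00190) and 2.05 ± 0.14 (adjusted p = 0.000206), Egr1 by 1.30 ± 0.17 (adjusted p = 0.00317) and the survival gene Ier3 by 1.70 ± 0.11 (adjusted p = 0.000178). Klf4, a Kruppel-like factor of growth arrest, was the member that fell, by 1.08 ± 0.16 (adjusted p = 0.00582). Feedback genes of the ERK kinase cascade were mixed: 5 of 18 rose and 2 fell (38.9% against 6.12%), with a median difference of 0.41. Spry4 rose by 1.40 ± 0.19 (adjusted p = 0.00322) and Phlda1 by 1.89 ± 0.27 (adjusted p = 0.00437), while the other Sprouty genes Spry1 and Spry2 fell by 1.60 ± 0.26 (adjusted p = 0.00835) and 0.47 ± 0.07 (adjusted p = 0.00510), and the ERK phosphatase gene Dusp6 rose by 0.79 ± 0.17 (adjusted p = 0.0278). The count of feedback genes that rose was 3 without collagen Z, plastic P or plastic Z and 2 without collagen P, plastic A or plastic S. Dusp6 did not pass without collagen P, collagen Z, plastic A, plastic P or plastic S (adjusted p from 0.0672 to 0.0848). Fosl1 passed without plastic Z and with dim genes filtered out (adjusted p from 0.0430 to 0.0438).

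Promoter sequences are shown for 6 genes that rose, picked because they hold a motif that AP-1 or NF-kB proteins bind. Whether these motifs had a part in the rises was not tested. They are the 250 bases before the annotated start in RefSeq's rat assembly GRCr8, 5′ to 3′ on the gene's own strand, with each motif match in capitals. The AP-1 motif searched was TGACTCA, the cyclic AMP response element TGACGTCA and the NF-kB motif its 10-base consensus, each on both strands, so that a match on the other strand shows its reverse complement, and none overlapping another in these windows.
Mmp3, chr8:12925031-12925280 (plus strand), AP-1 motif in capitals: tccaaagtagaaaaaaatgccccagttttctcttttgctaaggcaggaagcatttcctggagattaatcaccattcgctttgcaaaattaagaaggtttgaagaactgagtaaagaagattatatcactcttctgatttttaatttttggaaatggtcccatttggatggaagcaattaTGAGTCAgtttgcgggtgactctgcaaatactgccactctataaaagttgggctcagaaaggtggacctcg
Mmp13, chr8:12782579-12782828 (plus strand), AP-1 motif in capitals: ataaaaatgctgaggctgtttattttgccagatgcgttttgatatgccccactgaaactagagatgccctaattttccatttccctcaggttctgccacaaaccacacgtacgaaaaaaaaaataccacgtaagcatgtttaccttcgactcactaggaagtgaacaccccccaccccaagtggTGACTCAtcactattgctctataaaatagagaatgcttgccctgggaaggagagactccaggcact
Il11, chr1:78098372-78098621 (plus strand), AP-1 motif in capitals: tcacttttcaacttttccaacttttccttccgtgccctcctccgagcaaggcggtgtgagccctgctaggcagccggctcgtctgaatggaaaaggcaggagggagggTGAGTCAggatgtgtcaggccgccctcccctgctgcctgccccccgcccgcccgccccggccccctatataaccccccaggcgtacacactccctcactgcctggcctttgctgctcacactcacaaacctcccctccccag
Il6, chr4:5894576-5894825 (minus strand), cyclic AMP response element and then NF-kB motif in capitals: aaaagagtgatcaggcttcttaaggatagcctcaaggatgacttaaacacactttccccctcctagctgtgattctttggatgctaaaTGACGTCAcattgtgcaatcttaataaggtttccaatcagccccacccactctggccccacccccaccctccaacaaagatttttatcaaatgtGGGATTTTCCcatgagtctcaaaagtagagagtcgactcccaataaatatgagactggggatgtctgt
Cxcl1, chr14:17479322-17479571 (minus strand), NF-kB motif in capitals: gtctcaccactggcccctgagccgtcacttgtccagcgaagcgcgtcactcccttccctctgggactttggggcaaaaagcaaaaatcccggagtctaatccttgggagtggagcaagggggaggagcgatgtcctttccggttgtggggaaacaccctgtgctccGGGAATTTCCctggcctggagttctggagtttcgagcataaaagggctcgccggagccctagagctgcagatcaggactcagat
Nfkbiz, chr11:58251471-58251720 (plus strand), NF-kB motif in capitals: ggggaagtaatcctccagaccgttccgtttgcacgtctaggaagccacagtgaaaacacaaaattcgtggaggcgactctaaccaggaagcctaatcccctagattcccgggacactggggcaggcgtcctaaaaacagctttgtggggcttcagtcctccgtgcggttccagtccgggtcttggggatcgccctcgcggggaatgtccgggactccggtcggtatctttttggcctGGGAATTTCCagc
The matches begin 71 and 66 bases before the start in Mmp3 and Mmp13 and 142 in Il11, and the NF-kB matches of Il6, Cxcl1 and Nfkbiz begin 68, 84 and 13 bases before it. The promoter table held 11950 of the genes tested and not Lif, Fos, Jun, Csf3 or Ier3. It did hold Ptgs2, Nr4a1, Nr4a2, Cxcl2, Hgf and Rasd1, which also rose and whose windows are not shown. The NF-kB motif stood in 5.0% of all these windows, in 9.97% of the 341 called higher on collagen I and in 5.25% of the 381 called lower. For AP-1 the shares were 3.43%, 5.28% and 3.15%, and for the cyclic AMP response element 2.28%, 4.99% and 2.62%. The CArG box, bound by serum response factor, stood in 1.18% of all windows, 0.587% of those called higher and 2.10% of those called lower. The STAT motif searched, TTCCNGGAA, stood in 1.05%, 0.880% and 0.525%. These shares describe the letters in the windows and were not tested.

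Of the integrin chains that bind collagen I, the alpha chains did not pass the test. The integrin chain gene Itga1 read from 8.54 to 8.81 on collagen I and from 8.48 to 8.74 on plastic and differed by 0.12 ± 0.09 (adjusted p = 0.551), Itga2 by 0.60 ± 0.19 (adjusted p = 0.125) and Itga11 by 0.18 ± 0.23 (adjusted p = 0.747), and Itga10 was dim on both surfaces (from 2.72 to 3.0 on collagen I and from 2.64 to 3.09 on plastic; adjusted p = 0.953). Their shared partner gene Itgb1 fell by 0.27 ± 0.06 (adjusted p = 0.0379). The discoidin receptor genes parted. Ddr1 read 6.55, 6.77 and 5.90 on collagen I and 8.38, 8.01, 8.30 and 8.24 on plastic, a fall of 1.82 ± 0.20 (adjusted p = 0.00123), while Ddr2, the form typical of fibroblasts, read from 10.25 to 10.56 on collagen I and from 10.04 to 10.32 on plastic and differed by 0.21 ± 0.10 (adjusted p = 0.315). Mrc2, the endocytic receptor that takes up collagen fragments, read 9.62, 9.69 and 9.62 on collagen I and 8.92, 8.87, 8.86 and 8.90 on plastic, a rise of 0.76 ± 0.06 (adjusted p = 0.000250), and the hyaluronan receptor gene Cd44 rose by 0.94 ± 0.14 (adjusted p = 0.00596). In total 2 of 11 measured receptors for collagen rose and 2 fell (36.4% against 6.12% of all genes). Among 10 further integrin chains, the fibronectin receptor gene Itga5 rose by 1.40 ± 0.23 (adjusted p = 0.00813) and Itgb8, whose integrin activates latent TGF-beta, fell by 1.53 ± 0.34 (adjusted p = 0.0321). Itgb1 did not pass without any single one of the 7 arrays, with the letter as a fixed block, with arrays re-centred on their medians, with quantile normalization applied again or with every entry of the table tested (adjusted p from 0.0542 to 0.136). Itgb8 did not pass without collagen P, collagen Z, plastic A, plastic P or plastic S or with every entry of the table tested (adjusted p from 0.0518 to 0.118). Itga2 passed with only the arrays of the compared surfaces in the fit (adjusted p = 0.0395).

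The main genes of the scar matrix did not pass the test. The collagen I chain genes, among the brightest on the array, read from 12.48 to 12.94 on collagen I and from 12.56 to 12.95 on plastic for Col1a1 and from 12.69 to 12.98 on collagen I and from 12.72 to 12.86 on plastic for Col1a2, differences of 0.03 ± 0.13 (adjusted p = 0.931) and 0.10 ± 0.09 (adjusted p = 0.626). Col3a1 differed by -0.32 ± 0.18 (adjusted p = 0.403) and the fibronectin gene Fn1 by 0.19 ± 0.05 (adjusted p = 0.0823). Of 29 fibrillar collagen and collagen-processing genes 1 rose and 1 fell, 6.90% against the background of 6.12%. The prolyl hydroxylase gene P4ha2 fell by 0.70 ± 0.13 (adjusted p = 0.0157) and the minor chain gene Col5a3 rose by 0.59 ± 0.14 (adjusted p = 0.0440), and the cross-linking enzyme gene Loxl1 differed by -1.01 ± 0.29 (adjusted p = 0.0926; -0.57 without collagen Z). Of 7 basement membrane genes the laminin chain gene Lama5 alone passed, falling by 0.85 ± 0.18 (adjusted p = 0.0257). P4ha2 did not pass without collagen Z or plastic A (adjusted p from 0.0541 to 0.0586). Col5a3 did not pass without collagen P, collagen Z, plastic A, plastic P, plastic S or plastic Z, with only the arrays of the compared surfaces in the fit or with every entry of the table tested (adjusted p from 0.0661 to 0.126). Lama5 did not pass without collagen P, collagen Z, plastic A, plastic S or plastic Z (adjusted p from 0.0523 to 0.0966). Fn1 passed with trend and robust moderation (adjusted p = 0.0474). Loxl1 passed without collagen Z (adjusted p = 0.0164).

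Other matrix components changed, in both directions. Has2, the main hyaluronan synthase gene, read 7.64, 8.67 and 9.54 on collagen I and 5.49, 5.02, 5.29 and 5.70 on plastic, a rise of 3.24 ± 0.38 (adjusted p = 0.00182). Aspn, which encodes the small proteoglycan asporin, read 7.77, 7.99 and 6.99 on collagen I and 4.48, 4.73, 3.30 and 4.96 on plastic, a rise of 3.22 ± 0.58 (adjusted p = 0.0128). The matricellular genes Postn (periostin) and Spp1 (osteopontin) rose by 2.29 ± 0.38 (adjusted p = 0.00962) and 2.44 ± 0.32 (adjusted p = 0.00299), and Lrrc15, a surface protein of activated fibroblasts that was dim on plastic, by at least 1.85 (adjusted p = 0.000484). In the opposite direction, Ccn3, a matricellular relative of connective tissue growth factor, read 6.89, 7.24 and 6.58 on collagen I and 9.26, 9.82, 9.49 and 8.98 on plastic, a fall of 2.48 ± 0.22 (adjusted p = 0.000549), and Ccn5 fell by 0.96 ± 0.13 (adjusted p = 0.00368). Ccn2, connective tissue growth factor itself, read 8.81, 9.56 and 9.78 on collagen I and 8.17, 9.31, 7.72 and 9.57 on plastic and differed by 0.69 ± 0.46 (adjusted p = 0.490), with plastic values that ran higher in P and Z than in A and S. The fibulin gene Efemp1 fell by 2.06 ± 0.39 (adjusted p = 0.0156), the mimecan gene Ogn by 1.83 ± 0.29 (adjusted p = 0.00774) and Ccdc80, a secreted matrix protein gene, by 2.61 ± 0.12 (adjusted p = 1.76e-05). Of 26 elastic fibre, matricellular and hyaluronan genes 4 rose and 4 fell (30.8% against 6.12%), and of 9 small leucine-rich proteoglycans 1 rose and 1 fell (22.2%). The count of elastic fibre and matricellular members that fell was 2 without collagen Z or plastic A. Aspn did not pass without collagen A or collagen P (adjusted p from 0.0509 to 0.0617). Efemp1 did not pass without collagen Z or plastic A (adjusted p from 0.0567 to 0.0672).

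Several matrix metalloproteinases rose, while none of their inhibitors passed the test. Of 21 genes of this family and its inhibitors 5 rose and 0 fell (23.8% against 6.12% of all genes, 1 lower at an unadjusted p under 0.05 by limma). The collagenase gene Mmp13 read 8.09, 6.31 and 5.0 on collagen I and 2.63, 2.87, 2.79 and 2.92 on plastic, a rise of at least 2.22 (adjusted p = 0.0180). The stromelysin gene Mmp3 read 8.63, 7.81 and 6.29 on collagen I and 5.08, 4.61, 3.11 and 4.01 on plastic, a rise of at least 3.03 (adjusted p = 0.0180), and the gelatinase gene Mmp9 10.61, 9.31 and 8.55 on collagen I and 7.36, 6.88, 7.49 and 6.85 on plastic, a rise of 2.34 ± 0.47 (adjusted p = 0.0211). In each of these 3 genes letter A was highest and letter Z lowest on collagen I. Mmp14, the membrane-bound collagenase and activator of progelatinase, was steadier at 12.19, 11.92 and 11.67 on collagen I and 10.82, 10.36, 11.03 and 10.36 on plastic, a rise of 1.29 ± 0.19 (adjusted p = 0.00510). Mmp2 differed by 0.34 ± 0.12 (adjusted p = 0.171), although with the letter as a fixed block it passed (adjusted p = 0.0403), and the inhibitor gene Timp1 differed by -0.39 ± 0.18 (adjusted p = 0.290). The count of members that rose was 3 without collagen A or plastic P, 2 without plastic A and 1 without collagen P or plastic Z. The AP-1 letters shown above lie in the promoters of Mmp3 and Mmp13, which were picked for that match, and their part in these rises was not tested. Mmp13 did not pass without collagen P, plastic A or plastic Z (adjusted p from 0.0508 to 0.0640). Mmp3 did not pass without collagen A, collagen P or plastic Z (adjusted p from 0.0549 to 0.0756). Mmp9 did not pass without collagen P, plastic A, plastic P or plastic Z (adjusted p from 0.0578 to 0.0668).

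Listed proteases of the ADAM and ADAMTS families split evenly: of 10 measured on this list, 4 rose and 4 fell, 80.0% against 6.12% of all genes, with a median difference of -0.10. The list leaves out Adamts2 and Adamts14, which were counted with the collagen-processing genes and did not pass, with differences of -0.3 and 0.4. Of the enzymes that cut the proteoglycan aggrecan, Adamts4 rose by 1.82 ± 0.20 (adjusted p = 0.00122) whereas Adamts5 read 7.74, 7.97 and 6.79 on collagen I and 10.28, 10.22, 9.80 and 9.49 on plastic, a fall of 2.45 ± 0.35 (adjusted p = 0.00473), Adamts15 fell by 2.35 ± 0.38 (adjusted p = 0.00851) and Adamts1 by 1.73 ± 0.24 (adjusted p = 0.00438). Adamts12 rose by 1.04 ± 0.11 (adjusted p = 0.00107) and the sheddase gene Adam17 by 0.77 ± 0.15 (adjusted p = 0.0217). In the plasminogen and coagulation system, Plaur, the urokinase receptor gene, rose by 1.95 ± 0.23 (adjusted p = 0.00216) and the protease inhibitor gene Serpine2 by 1.30 ± 0.16 (adjusted p = 0.00208). F3, which encodes the coagulation initiator tissue factor, read 7.19, 7.51 and 9.04 on collagen I and 10.79, 10.74, 10.72 and 11.09 on plastic, a fall of 2.92 ± 0.38 or 7.57-fold (adjusted p = 0.00296), with collagen Z nearest to the plastic values. Of 19 genes of this system 2 rose and 2 fell (21.1% against 6.12%). The count of ADAM and ADAMTS genes that rose was 2 without collagen A, plastic P or plastic S. Adam17 did not pass without collagen A, collagen Z, plastic P or plastic S (adjusted p from 0.0527 to 0.0838).

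In the TGF-beta pathway, the central profibrotic signal of stellate cells, the ligand genes went in opposite directions. Tgfb1 read 10.19, 10.39 and 11.24 on collagen I and 7.91, 8.39, 7.80 and 8.71 on plastic, a rise of 2.41 ± 0.32 (adjusted p = 0.00313), Tgfb2 4.23, 5.50 and 5.42 on collagen I and 6.56, 7.67, 6.73 and 7.75 on plastic, a fall of 2.13 ± 0.40 (adjusted p = 0.0169), and Tgfb3 6.32, 6.28 and 6.82 on collagen I and 7.33, 7.87, 7.96 and 7.68 on plastic, a fall of 1.24 ± 0.19 (adjusted p = 0.00629). In all 3 genes the surfaces did not overlap. The inhibitory Smad7 rose by 1.24 ± 0.18 (adjusted p = 0.00459), Pmepa1, another feedback inhibitor, by 1.84 ± 0.34 (adjusted p = 0.0149) and the matrix protein gene Tgfbi by 1.86 ± 0.33 (adjusted p = 0.0129). Of the latency proteins that hold the ligand in the matrix, Ltbp2 and Ltbp3 rose by 1.23 ± 0.17 (adjusted p = 0.00381) and 0.64 ± 0.15 (adjusted p = 0.0379) and Ltbp1 fell by 0.55 ± 0.10 (adjusted p = 0.0131). Together 7 of 18 members rose and 3 fell (55.6% against 6.12%), with a median difference of 0.00 and a median size regardless of sign of 0.94 against 0.10 over all genes. Pmepa1 did not pass without collagen P, collagen Z or plastic A (adjusted p from 0.0525 to 0.0606). Ltbp3 did not pass without collagen A, collagen P, collagen Z, plastic A, plastic P or plastic Z, with only the arrays of the compared surfaces in the fit or with every entry of the table tested (adjusted p from 0.0575 to 0.129). Ltbp1 did not pass without collagen P or collagen Z (adjusted p from 0.0543 to 0.0576).

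Among BMP and activin genes 8 of 32 rose and 5 fell (40.6% against 6.12% of all genes). Of the ligands, Bmp2 was dim on plastic and rose by at least 0.84 (adjusted p = 0.00449), Bmp6 fell by 1.78 ± 0.16 (adjusted p = 0.000549), and Gdf10, dim on collagen I, fell by at least 1.82 (adjusted p = 0.00336). The target gene Id2 rose by 1.26 ± 0.12 (adjusted p = 0.000598). Inhibitors of the pathway rose as well: Bambi, a decoy receptor gene, read 7.31, 7.02 and 6.72 on collagen I and 4.98, 4.70, 4.78 and 5.49 on plastic, a rise of 2.03 ± 0.20 (adjusted p = 0.000856), and the antagonist genes Nog (noggin) and Fst (follistatin) rose by 1.44 ± 0.26 (adjusted p = 0.0124) and 0.83 ± 0.19 (adjusted p = 0.0396). The antagonist gene Chrdl1, dim on collagen I, fell by at least 1.08 (adjusted p = 0.00936). The count of members that rose was 5 without collagen P, plastic A or plastic P and 4 without collagen Z. Nog did not pass without collagen Z (adjusted p = 0.0501). Fst did not pass without collagen A, collagen P, collagen Z, plastic A, plastic P or plastic S or with every entry of the table tested (adjusted p from 0.0629 to 0.128).

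In the contractile apparatus, Acta2, the alpha smooth muscle actin gene that marks activated stellate cells, read 10.13, 11.33 and 10.83 on collagen I and 10.08, 10.68, 9.88 and 11.04 on plastic and differed by 0.34 ± 0.34 (adjusted p = 0.668), with letters P and Z above A and S on plastic. The closely related Actg2 may add to this signal, which was not tested. Its own mean was dim on both surfaces, 3.85 on collagen I and 4.14 on plastic. The vimentin gene Vim differed by 0.00 ± 0.11 (adjusted p = 0.989), and Gfap was dim on both surfaces (adjusted p = 0.467). Of 28 contractile and cytoskeletal genes 0 rose and 3 fell (10.7% against 6.12% of all genes; 1 higher at an unadjusted p under 0.05 by limma), with a median difference of -0.02. The desmin gene Des read 6.09, 5.73 and 6.18 on collagen I and 6.86, 6.68, 6.65 and 6.89 on plastic, a fall of 0.77 ± 0.12 (adjusted p = 0.00580), and the calponin gene Cnn3 fell by 0.42 ± 0.07 (adjusted p = 0.00820). YAP/TAZ and SRF are regulators that sense how far a cell is spread and stretched. Of 18 genes of these regulators and their targets 7 fell and 1 rose (44.4% against 6.12%), with a median difference of -0.48. The targets Ccn1, Ccn2 and Ankrd1 did not pass, with differences of -0.52, 0.69 and -0.35, and Ankrd1 was dim on both surfaces. Amotl2 read 6.98, 7.30 and 7.46 on collagen I and 8.52, 8.66, 8.47 and 8.59 on plastic, a fall of 1.31 ± 0.13 (adjusted p = 0.000817), and Fhl1 fell by 2.0 ± 0.24 (adjusted p = 0.00229), the kinase gene Nuak2 by 1.06 ± 0.16 (adjusted p = 0.00596) and the stress gene Gadd45b by 0.83 ± 0.09 (adjusted p = 0.00148). Wwtr1, which encodes TAZ itself, was the member that rose, by 0.47 ± 0.11 (adjusted p = 0.0377). The count of YAP/TAZ and SRF list members that fell was 4 without plastic A. Wwtr1 did not pass without any single one of the 7 arrays, with the letter as a fixed block or with every entry of the table tested (adjusted p from 0.0583 to 0.109).

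**Figure D3:**
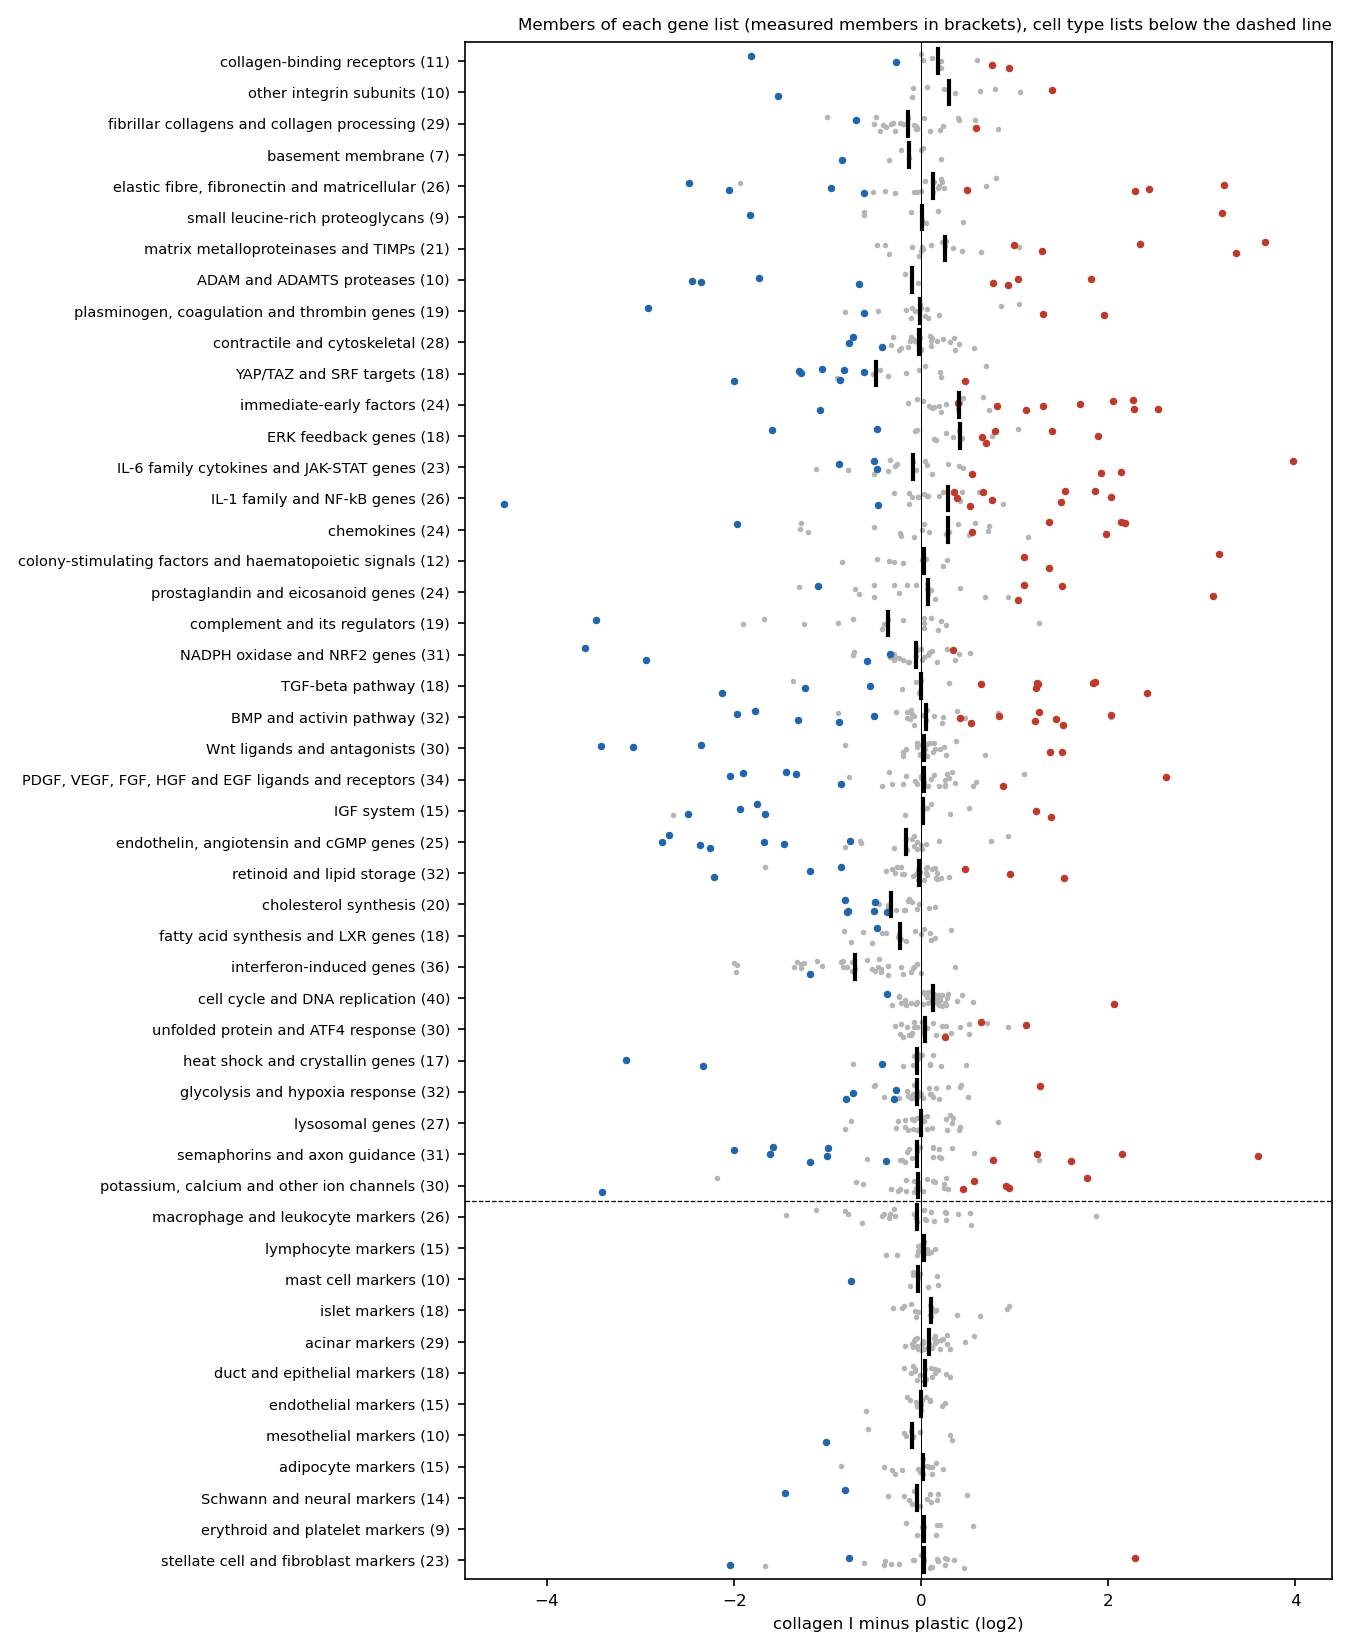
Difference between collagen I and plastic (horizontal axis, log2) for every measured member of each gene list (rows), with called members in colour, other members in grey and a bar at the list's median. The ADAM and ADAMTS, TGF-beta and YAP/TAZ rows hold large differences, whereas each row of other cell types holds at most 2 called members.

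Growth factors that act on epithelium and vessels changed in both directions. Hgf, the hepatocyte growth factor gene, read 8.64, 8.82 and 8.14 on collagen I and 5.96, 6.06, 5.53 and 6.09 on plastic, a rise of 2.62 ± 0.19 or 6.16-fold (adjusted p = 0.000206), and the keratinocyte growth factor gene Fgf7 rose by 0.87 ± 0.08 (adjusted p = 0.000650). Fgf18 fell by 1.90 ± 0.17 (adjusted p = 0.000536), the receptor genes Fgfr3 and Egfr by 2.04 ± 0.21 (adjusted p = 0.00105) and 0.86 ± 0.15 (adjusted p = 0.0118), and the lymphatic growth factor genes Vegfc and Vegfd by 1.45 ± 0.22 (adjusted p = 0.00604) and 1.34 ± 0.17 (adjusted p = 0.00276). These were 2 rises and 5 falls among 34 measured (20.6% against 6.12% of all genes). In the insulin-like growth factor system, Pappa, the protease that frees the ligand from its binding proteins, read 8.98, 8.97 and 8.80 on collagen I and 7.54, 7.71, 7.74 and 7.74 on plastic, a rise of 1.23 ± 0.10 (adjusted p = 0.000446), while the binding protein genes Igfbp3 and Igfbp6 fell by 1.76 ± 0.17 (adjusted p = 0.000801) and 1.67 ± 0.33 (adjusted p = 0.0203). The stanniocalcins, which inhibit that protease, parted: Stc1 rose by 1.39 ± 0.21 (adjusted p = 0.00566) and Stc2 fell by 2.49 ± 0.35 (adjusted p = 0.00459). In all 2 of 15 members rose and 4 fell. The count of those that fell was 2 without collagen A, collagen Z, plastic A or plastic Z. Egfr did not pass without collagen Z (adjusted p = 0.0505). Igfbp6 did not pass without collagen A, collagen Z, plastic A or plastic Z (adjusted p from 0.0555 to 0.0760).

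Of 30 Wnt pathway genes 2 rose and 3 fell (16.7% against 6.12%), and 15 were dim on both surfaces. The noncanonical ligand gene Wnt5a read 7.58, 8.06 and 8.54 on collagen I and 6.48, 6.52, 6.48 and 6.76 on plastic, a rise of 1.5 ± 0.19 (adjusted p = 0.00297), and Wnt4 5.45, 5.85 and 5.21 on collagen I and 7.94, 7.58, 8.05 and 7.84 on plastic, a fall of 2.35 ± 0.35 (adjusted p = 0.00543). The receptor genes also went in opposite directions, Fzd1 up by 1.38 ± 0.14 (adjusted p = 0.000801), and Fzd4 down by 3.08 ± 0.39 (adjusted p = 0.00256). Sfrp1, a secreted Wnt antagonist, read 6.57, 7.41 and 6.03 on collagen I and 10.09, 10.04, 10.33 and 9.89 on plastic, a fall of 3.42 ± 0.69 (adjusted p = 0.0230). Sfrp1 did not pass without collagen A, collagen Z, plastic A, plastic P, plastic S or plastic Z (adjusted p from 0.0573 to 0.0910).

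The vasoactive genes that passed all fell. Of 25 endothelin, angiotensin, adrenomedullin and cyclic GMP genes 7 fell and 0 rose, against 3.17% and 2.95% of all genes (1 higher at an unadjusted p under 0.05 by limma). Edn1, the endothelin 1 gene, read 4.48, 5.23 and 3.95 on collagen I and 7.16, 7.76, 6.77 and 7.61 on plastic, a fall of 2.77 ± 0.32 (adjusted p = 0.00163). Agtr1a, the main angiotensin II receptor gene, read 8.01, 8.25 and 6.83 on collagen I and 10.17, 9.57, 10.31 and 9.74 on plastic, a fall of 2.26 ± 0.36 (adjusted p = 0.00734). Adm, the adrenomedullin gene, fell by 1.68 ± 0.20 (adjusted p = 0.00203), Ramp3, a subunit of its receptor, by 2.36 ± 0.19 (adjusted p = 0.000401), the natriuretic peptide clearance receptor gene Npr3 by 2.70 ± 0.51 (adjusted p = 0.0157) and Gucy1b1, a subunit of the nitric oxide receptor, by 1.47 ± 0.22 (adjusted p = 0.00601). Npr3 did not pass without plastic A (adjusted p = 0.0534).

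A hydrogen peroxide-generating pair fell together. Duox1, a dual oxidase gene, read 6.24, 5.84 and 5.32 on collagen I and 9.58, 8.87, 9.70 and 9.42 on plastic, a fall of 3.59 ± 0.48 or 12.1-fold (adjusted p = 0.00331), and Duoxa1, whose product brings that enzyme to the cell surface, read 6.48, 6.27 and 5.79 on collagen I and 9.33, 8.59, 9.47 and 9.09 on plastic, a fall of 2.94 ± 0.39 (adjusted p = 0.00321). RefSeq places the genes next to each other on opposite strands. Duox2, on the far side of the same cluster, was dim on both surfaces (from 3.14 to 3.19 on collagen I and from 3.26 to 3.65 on plastic). Of 31 oxidase and antioxidant genes 4 fell and 1 rose (16.1% against 6.12% of all genes). The one that rose was Sod2, by 0.34 ± 0.08 (adjusted p = 0.0487), and the glutathione synthesis gene Gclc fell by 0.58 ± 0.11 (adjusted p = 0.0147). Cd55, a membrane protein that shields cells from complement, read 5.35, 6.60 and 5.93 on collagen I and 8.85, 10.0, 9.50 and 9.42 on plastic, a fall of 3.48 ± 0.32 (adjusted p = 0.000616), and was the single gene to pass among 19 complement genes (5.26% against 6.12% of all genes). The count of oxidase and antioxidant genes that fell was 2 without plastic A. Sod2 did not pass without any single one of the 7 arrays, with only the arrays of the compared surfaces in the fit or with every entry of the table tested (adjusted p from 0.0647 to 0.145). Gclc did not pass without collagen A, collagen P or plastic A (adjusted p from 0.0505 to 0.0681).

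Guidance molecules of axons and vessels changed in both directions: 5 of 31 rose and 7 fell (38.7% against 6.12%). Sema7a, a membrane-anchored semaphorin that binds beta 1 integrins, read 6.67, 8.39 and 8.76 on collagen I and 4.31, 4.66, 3.57 and 4.83 on plastic, a rise of 3.60 ± 0.49 (adjusted p = 0.00381). Ntn1, the netrin 1 gene, read 8.55, 8.50 and 8.30 on collagen I and 6.0, 6.07, 6.57 and 6.57 on plastic, a rise of 2.15 ± 0.16 (adjusted p = 0.000236), and the receptor genes Plxnd1 and Robo1 rose by 1.60 ± 0.13 (adjusted p = 0.000330) and 1.24 ± 0.11 (adjusted p = 0.000517). The neuropilins, co-receptors for semaphorins and vascular growth factors, parted: Nrp1 fell by 1.01 ± 0.13 (adjusted p = 0.00268) and Nrp2 rose by 0.77 ± 0.11 (adjusted p = 0.00577). The repellent Slit3 fell by 2.0 ± 0.41 (adjusted p = 0.0245). Among 30 ion channel genes 5 rose and 1 fell. Kcnd3, a transient potassium channel gene, read 3.23, 3.73 and 3.23 on collagen I and 6.78, 6.67, 7.07 and 6.70 on plastic, so that collagen I values were dim and the fall was at least 2.56 (adjusted p = 1.97e-05). The potassium channel gene Kcnh1 rose by 1.77 ± 0.28 (adjusted p = 0.00697) and the stretch-activated channel gene Piezo1 by 0.45 ± 0.09 (adjusted p = 0.0184). The count of channel genes that rose was 3 without collagen Z or plastic S and 2 without collagen P or plastic A. Slit3 did not pass without collagen A, collagen P, collagen Z, plastic A, plastic S or plastic Z (adjusted p from 0.0531 to 0.0913). Piezo1 did not pass without collagen P, collagen Z or plastic A (adjusted p from 0.0601 to 0.0712).

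Several of the largest differences fell outside these groups. Rasd1, a Ras-like protein gene induced by glucocorticoids, read 9.20, 9.05 and 8.65 on collagen I and 5.14, 4.65, 5.73 and 4.87 on plastic, a rise of 3.87 ± 0.25 or 14.6-fold (adjusted p = 0.000145). The forkhead factor gene Foxq1 read 8.38, 8.58 and 8.16 on collagen I and 5.19, 5.05, 4.81 and 5.72 on plastic, a rise of 3.18 ± 0.29 (adjusted p = 0.000615), and the engulfment receptor gene Megf10 rose by 3.10 ± 0.31 (adjusted p = 0.000816). Downward, the ferritin receptor gene Scara5 read 6.68, 7.19 and 5.07 on collagen I and 9.88, 9.62, 10.13 and 9.43 on plastic, a fall of 3.45 ± 0.52 (adjusted p = 0.00596), the small heat shock protein gene Cryab fell by 3.16 ± 0.48 (adjusted p = 0.00596), and its relative Hspb7, dim on collagen I, by at least 1.37 (adjusted p = 0.00247). Tgm2, the tissue transglutaminase gene, fell by 2.88 ± 0.46 (adjusted p = 0.00740), and Cntn2, a neural adhesion gene that was dim on collagen I, by at least 2.62 (adjusted p = 1.76e-05). Cyp11b1, named for a steroid hydroxylase whose near relatives its probes may also read, was dim on collagen I and fell by at least 2.54 (adjusted p = 0.00113).

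Retinoid and lipid storage genes, the mark of quiescent stellate cells, changed in both directions: 3 of 32 rose and 3 fell (18.8% against 6.12%), with a median difference of -0.02. Plin2, which coats lipid droplets, read 8.99, 8.58 and 8.87 on collagen I and 7.98, 7.72, 7.97 and 7.80 on plastic, a rise of 0.95 ± 0.11 (adjusted p = 0.00178). Pparg, the adipogenic regulator gene, differed by 0.12 ± 0.33 (adjusted p = 0.888), and Lrat, which stores retinol as ester, read 3.39, 3.53 and 2.25 on collagen I and 5.35, 4.06, 5.85 and 3.66 on plastic with a dim collagen I mean and did not pass (adjusted p = 0.168), although it passed with the letter as a fixed block (adjusted p = 0.0486). The retinoic acid-making Aldh1a2 fell by 2.22 ± 0.24 (adjusted p = 0.00130) and the retinoic acid-degrading Cyp26b1 rose by 1.53 ± 0.28 (adjusted p = 0.0131). Cholesterol synthesis genes fell in 6 of 20 cases and rose in 0 (30.0% against 6.12%, median difference -0.32, 0 higher at an unadjusted p under 0.05 by limma), by small steps: Msmo1 by 0.79 ± 0.14 (adjusted p = 0.0125), Nsdhl by 0.50 ± 0.09 (adjusted p = 0.0133) and Fdft1 by 0.49 ± 0.10 (adjusted p = 0.0196). The count of cholesterol genes that fell was 3 without plastic Z, 2 without plastic A or plastic P and 1 without collagen A or collagen Z. Cyp26b1, Msmo1 and Nsdhl did not pass without collagen A or collagen Z (adjusted p from 0.0507 to 0.0573). Fdft1 did not pass without collagen A, plastic A or plastic P (adjusted p from 0.0538 to 0.0638).

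Interferon-induced genes showed the lowest median of the pathway lists, -0.71 over 36 genes against 0.00 over all genes, yet 1 of them passed, Bst2, which encodes the virus-tethering protein tetherin, with a fall of 1.19 ± 0.24 (adjusted p = 0.0235). With the letter as a fixed block 10 members fell. The antiviral gene Rsad2 read 4.88, 3.79 and 4.50 on collagen I and 7.26, 5.19, 7.11 and 5.87 on plastic and differed by -1.97 ± 0.51 (adjusted p = 0.0636; adjusted p = 0.00974 with the fixed block), and Ifit1 by -1.33 ± 0.34 (adjusted p = 0.0559). Plastic P was the lowest plastic array for both Rsad2 and Bst2. The count of members that fell was 6 without plastic P, 4 without collagen A and 0 without collagen P, collagen Z, plastic A, plastic S or plastic Z. Bst2 did not pass without collagen P, collagen Z, plastic A, plastic S or plastic Z (adjusted p from 0.0599 to 0.0886). Rsad2 passed without plastic P, with the letter as a random block, with dim genes filtered out and with array weights (adjusted p from 0.0249 to 0.0469). Ifit1 passed with the letter as a random block, with only the arrays of the compared surfaces in the fit, with arrays re-centred on their medians, with dim genes filtered out, with trend and robust moderation and with array weights (adjusted p from 0.0355 to 0.0484).

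Of 40 cell cycle genes 1 rose and 1 fell (5.0% against 6.12%). The one that rose was Ccnd1, the cyclin D1 gene, which read 10.47, 10.22 and 10.66 on collagen I and 8.26, 8.56, 7.72 and 9.01 on plastic, a rise of 2.06 ± 0.29 (adjusted p = 0.00438), while Ccnd3 fell by 0.37 ± 0.06 (adjusted p = 0.00746). Of 30 unfolded protein and ATF4 response genes 3 rose (10.0%), among them Atf3 by 1.12 ± 0.26 (adjusted p = 0.0377). Of 32 glycolysis and hypoxia genes 4 fell and 1 rose (15.6% against 6.12%), the latter being Egln3, which encodes an oxygen-sensing hydroxylase, by 1.27 ± 0.23 (adjusted p = 0.0123). Of 27 lysosomal genes 0 passed, although 4 rose with the letter as a fixed block, and 5 had an unadjusted p under 0.05 by limma. The count of unfolded protein response genes that rose was 0 without collagen P, collagen Z, plastic A, plastic P or plastic Z. The count of glycolysis and hypoxia genes that fell was 2 without collagen Z or plastic S and 1 without collagen A, collagen P, plastic A, plastic P or plastic Z. Atf3 did not pass without collagen A, collagen P, collagen Z, plastic A, plastic P or plastic Z or with every entry of the table tested (adjusted p from 0.0603 to 0.124). Egln3 did not pass without collagen A or collagen Z (adjusted p from 0.0501 to 0.0542).

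Of 23 stellate cell and fibroblast markers 1 rose and 2 fell, 4 were dim on both surfaces, Gfap among them, and Lrat was dim on collagen I. The list's mean lay between 8.46 and 8.66 on collagen I and between 8.56 and 8.67 on plastic. Pdgfrb, the platelet-derived growth factor receptor of these cells, read from 10.30 to 10.68 on collagen I and from 10.20 to 10.29 on plastic (adjusted p = 0.167), and S100a4 fell by 2.04 ± 0.18 (adjusted p = 0.000517). Of 26 macrophage and leukocyte markers 0 passed (3 with an unadjusted p under 0.05 by limma). Their list mean lay between 5.7 and 6.38 on collagen I and between 5.64 and 6.57 on plastic. The macrophage gene Cd68 read 7.51, 7.21 and 8.85 on collagen I and 8.99, 7.83, 9.56 and 8.27 on plastic (adjusted p = 0.440), Adgre1 6.32, 6.25 and 6.98 on collagen I and 8.31, 6.99, 8.86 and 7.73 on plastic (adjusted p = 0.0935) and the pan-leukocyte gene Ptprc from 5.15 to 5.68 on collagen I and from 4.84 to 6.0 on plastic (adjusted p = 0.958). For Cd68 and Adgre1, as for Rsad2, plastic P was the lowest and plastic A and S the highest of the plastic arrays. Leukocytes also make cytokines such as Il1a, and the part of these cells in any of the results was not tested. Of 18 islet and 29 acinar markers 0 passed (0 and 2 with an unadjusted p under 0.05). On both surfaces 9 of the islet and 26 of the acinar genes were dim. The islet list mean lay between 4.75 and 5.32 on collagen I and between 4.58 and 5.25 on plastic. The insulin gene Ins1, whose probes can also read Ins2, was bright throughout (from 10.19 to 11.20 on collagen I and from 8.92 to 10.74 on plastic; adjusted p = 0.278) and passed with the letter as a fixed block (adjusted p = 0.0205). No duct, endothelial, lymphocyte, adipocyte or erythroid marker passed, of 18, 15, 15, 15 and 9 measured (0, 0, 0, 0 and 2 with an unadjusted p under 0.05). In that order 15, 11, 13, 6 and 6 of them were dim on both surfaces, where levels carry little signal. Over all genes 6.12% passed. Among the mesothelial, mast cell and Schwann lists 1, 1 and 2 members fell and 0 rose, of 10, 10 and 14 measured. Of these, 5, 9 and 10 were dim on both surfaces. Pdgfrb passed without collagen Z (adjusted p = 0.0400). Adgre1 passed without plastic P and with the letter as a fixed block (adjusted p from 0.0317 to 0.0454).

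The letters A, P and Z occur on both surfaces. Since nearly all called genes did not overlap between the surfaces, their direction within a letter is fixed in advance and the sizes are given as a description. Lif was 4.13, 3.99 and 3.79 higher on collagen I within A, P and Z, Ptgs2 2.66, 3.33 and 3.28 and Nfkbiz 2.05, 2.14 and 1.86. Mmp13 was 5.47, 3.44 and 2.08 higher and Csf3 3.97, 3.34 and 2.75, so that letter Z showed the smallest rise in both. Has2 and Sema7a ran the other way, with 2.15, 3.64 and 3.84 and 2.37, 3.73 and 3.93, smallest in letter A. Each letter is 1 array per surface and its differences have no error of their own. With the letter as a fixed block, the count of eicosanoid genes that fell was 3 in place of 1, of complement genes that fell 3 in place of 1, of collagen and collagen-processing genes that rose 3 in place of 1, of glycolysis and hypoxia genes that fell 1 in place of 4 and that rose 3 in place of 1, of lysosomal genes that rose 4 in place of 0, of fatty acid synthesis and LXR genes that fell 3 in place of 1, of cell cycle genes that fell 3 in place of 1, of islet markers that rose 2 in place of 0, of unfolded protein response genes that rose 5 in place of 3 and of ion channel genes that rose 3 in place of 5. Apart from the interferon-induced genes, the other lists' counts moved by at most 2.

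**Figure D4:**
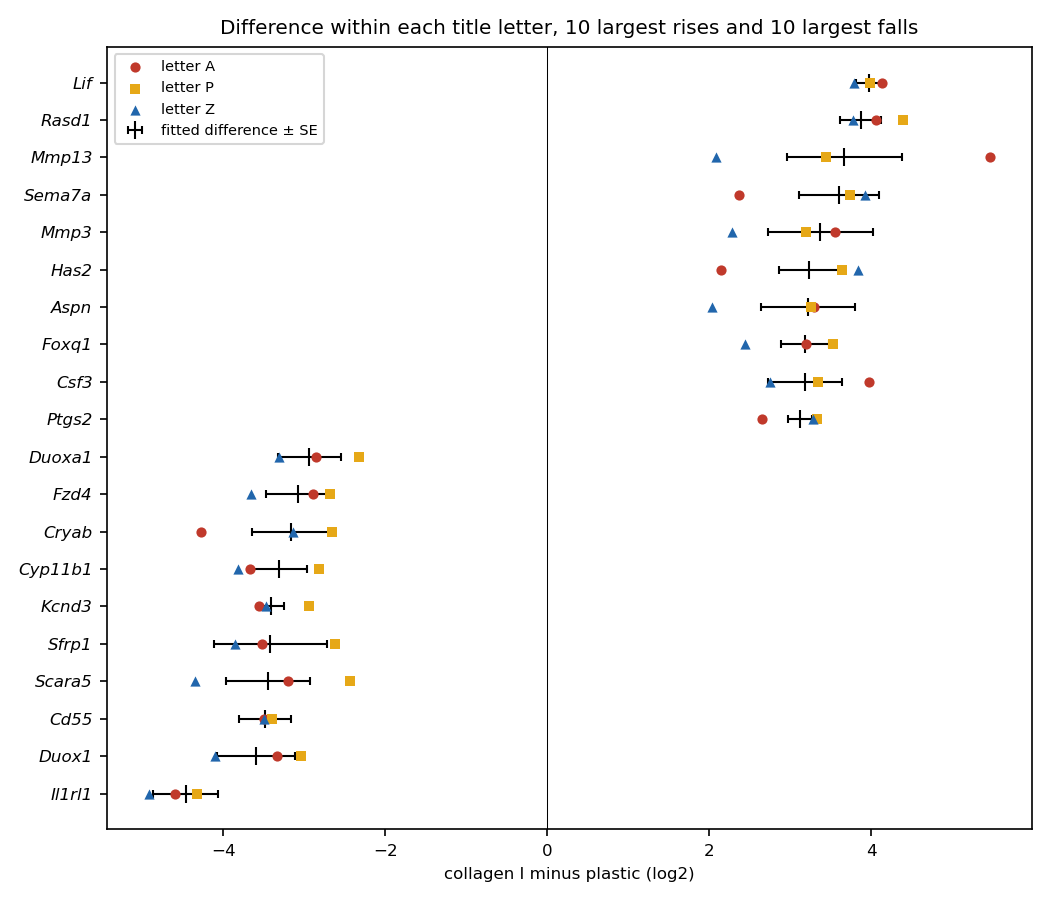
Difference between collagen I and plastic (horizontal axis, log2) within letters A, P and Z (points) for 20 of the genes with the largest differences, with the fitted difference and its standard error (bar). The letters lie close together for Lif and Cd55 and far apart for Mmp13, Has2 and Sema7a.

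Collagen I was also set against Matrigel, a basement membrane extract, in the same fit. Both comparisons with plastic share the plastic arrays, so the direct difference between the coatings was tested. That test in turn shares the collagen I arrays with the comparison with plastic, so the counts that follow are a description from which nothing is read. Of the 888 genes called against plastic, 106 also differed between collagen I and Matrigel, 11.9%, where 2.67% of all genes did. Of those that rose against plastic 56 were higher on collagen I than on Matrigel and 4 lower, where 1.45% and 1.21% of all genes were. Of those that fell 24 were lower on collagen I and 22 higher. Fos rose against plastic by 2.53 ± 0.16 on collagen I and differed by 0.22 on Matrigel (5.13 and 5.58 on its 2 arrays), a direct difference of 2.32 ± 0.19 (adjusted p = 0.00380). Jun, Nr4a2, Il11, Wnt5a and Il1a were also higher on collagen I than on Matrigel, by 1.56 ± 0.17 (adjusted p = 0.00818), 1.51 ± 0.17 (adjusted p = 0.00873), 1.29 ± 0.17 (adjusted p = 0.0138), 1.26 ± 0.23 (adjusted p = 0.0317) and 1.84 ± 0.38 (adjusted p = 0.0448). Lif was 1.09 ± 0.19 higher on collagen I than on Matrigel (adjusted p = 0.0259). Srpx2, a secreted urokinase receptor ligand chosen after its values were seen, rose by 2.32 ± 0.16 against plastic (8.75, 9.11 and 9.10 on collagen I and 6.61, 6.75, 6.43 and 6.86 on plastic) and read 7.17 and 6.59 on Matrigel, a direct difference of 2.11 ± 0.20 (adjusted p = 0.00469). Of the 22 genes that fell against plastic and were higher on collagen I than on Matrigel, F3, Bmp6, Gadd45b, Klf4 and Des stood 2.19 ± 0.45 (adjusted p = 0.0448), 1.19 ± 0.19 (adjusted p = 0.0194), 1.25 ± 0.11 (adjusted p = 0.00469), 1.32 ± 0.19 (adjusted p = 0.0153) and 1.16 ± 0.14 (adjusted p = 0.0101) above Matrigel. Plin2 stood 0.93 ± 0.13 below Matrigel (adjusted p = 0.0145). Of the genes that led the comparison with plastic, the difference between the coatings did not pass for Il1rl1 (0.07 ± 0.48; adjusted p = 0.970), Ptgs2 (0.43 ± 0.18; adjusted p = 0.287) or Rasd1 (0.08 ± 0.30; adjusted p = 0.932), with only 2 Matrigel arrays. The count of 106 was 33 without collagen P, 68 without collagen Z, 50 without plastic A, 65 without plastic P, 64 without plastic Z, 55 without Matrigel A and 35 with the letter as a fixed block. The direct difference of Wnt5a, Il1a and F3 did not pass without either Matrigel array, that of Il11, Lif, Bmp6 and Klf4 without Matrigel S, and that of Plin2 without Matrigel A. Without collagen P those of Wnt5a, Il1a, Lif, F3, Bmp6 and Klf4 did not pass, without collagen Z those of Il1a, Lif and Bmp6, and without collagen A that of Il1a. Without plastic A, P or Z those of Wnt5a, Il1a and F3 did not pass, nor that of F3 without plastic S. With the fixed block those of Il11, Wnt5a, Il1a, Lif, F3 and Bmp6 did not pass, nor those of Il1a and F3 with every entry tested or with array weights. The adjusted p in these fits ran from 0.052 to 0.148. Those of Fos, Jun, Nr4a2, Srpx2, Gadd45b and Des passed in every one of these fits.

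**Figure D5:**
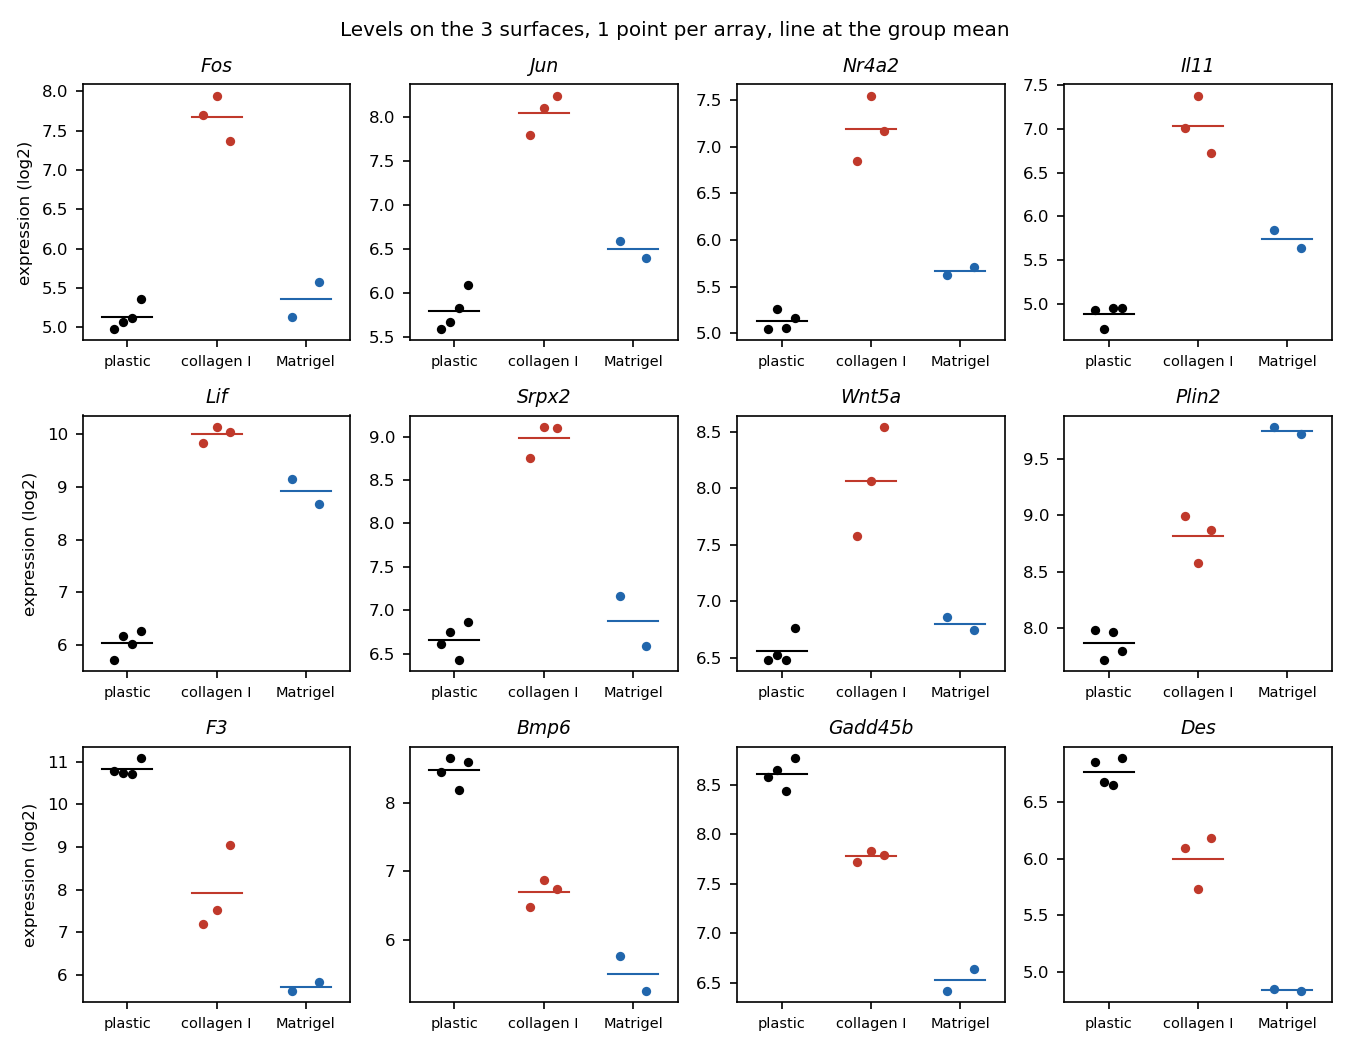
Log2 expression (vertical axis) of 12 genes named in the comparison of the coatings on every array of plastic, collagen I and Matrigel, with a line at each group's mean. Fos, Srpx2 and Wnt5a stand apart on collagen I, whereas F3, Bmp6 and Gadd45b are lowest on Matrigel.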

How the data were processed

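The authors deposited log2 expression values for each probe set entry, made with RMA per the submitters' processing notes. RMA corrects background, normalizes quantiles across arrays and summarises probes, so a shift shared by most genes is removed before any comparison. The software is not given in the sources used here, nor is the genome build. Of 29215 entries, 15310 had exactly 1 symbol in the array's probe table, 323 several and 13582 none, and 804 dimmer entries of the same genes were left out. RefSeq held the identifiers of 15279 of the 15310. A probe may pick up a close relative of its gene. Values were identical on at least 2 of the 7 arrays for 6971 genes.

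The values were fitted as deposited, in limma 3.58.1 (R 4.3.3), with a mean for each of the 3 surfaces in 1 fit, so that the Matrigel arrays share the estimate of the spread (6 residual degrees of freedom). Benjamini-Hochberg adjustment covered all genes tested, and a gene is called at an adjusted p under 0.05. The number of arrays limits the precision.

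Named genes were the 15 largest rises and 15 largest falls among called genes whose surfaces did not overlap, the 5 smallest p-values of each of 49 gene lists, and 22 fixed genes. The genes and lists were chosen with earlier results of these data known, and Actg2, Adam17, Adamts2, Ccdc80, Cd68, Chrdl1, Duox2, Efemp1, Egfr, Egr1, Fosl1, Fst, Il11ra1, Il1a, Il6r, Il6st, Junb, Klf4, Lifr, Ltbp1, Ltbp3, Nfkb2, Nog, Nrp2, Pla2g2a, Pmepa1, Ptges2, Ptges3, Ptgs1, Ptprc, Slit3, Srpx2, Stat3, Tgfb2, Tgfbi, Tnfrsf1a, Tnfrsf1b, Vegfc and Wwtr1 were chosen outside this rule after their values were seen.

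The title letters were checked as pairs. Deviations from the surface means correlated at 0.196, 0.234 and 0.269 between collagen I and plastic arrays of letters A, P and Z. Collagen A correlated more with plastic S (0.243). The main fit took no account of the letters, because the labels do not say what they mark. They entered as a block only in the alternatives. The pairing comes from the titles alone. Alternatives were the letter as a fixed or random block, other normalization, filters, entries and moderation, array weights, and leaving out each array.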

Additional observations from a re-analysis of the deposited data

Results flagged for a closer look

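Of the genes named here 184 were checked among the 4 plastic arrays. In 10 of them 1 array had a gap to the nearest other that exceeded Dixon's critical share of the whole range. Chance marks about 1 in 20 such groups, and 15.4% of all genes tested were marked by the same measure. Cntn2 read 7.12 in plastic P, above the 6.74 to 6.8 of the other plastic arrays (ratio 0.833). Duox2 read 3.65 in plastic S, above the 3.26 to 3.32 of the other plastic arrays (ratio 0.858). Gfap read 2.74 in plastic S, above the 2.45 to 2.5 of the other plastic arrays (ratio 0.848). Il11 read 4.72 in plastic P, below the 4.93 to 4.96 of the other plastic arrays (ratio 0.858). Nrp1 read 8.03 in plastic P, below the 8.33 to 8.34 of the other plastic arrays (ratio 0.962). Nsdhl read 7.35 in plastic S, below the 7.64 to 7.65 of the other plastic arrays (ratio 0.974). Ogn read 7.92 in plastic S, above the 7.17 to 7.23 of the other plastic arrays (ratio 0.922). Spp1 read 8.37 in plastic P, below the 9.61 to 9.69 of the other plastic arrays (ratio 0.936). Spry4 read 6.55 in plastic Z, above the 6.05 to 6.08 of the other plastic arrays (ratio 0.948). Wnt5a read 6.76 in plastic Z, above the 6.48 to 6.52 of the other plastic arrays (ratio 0.865). Plastic P was the far array in 4 of the 10 and plastic S in 4. How often each array was the far one over all genes is not given here, so nothing is read from these counts. Gfap and Duox2 were dim on plastic. The groups of 3 collagen I arrays are too small for this measure.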

How the results depend on the processing

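The count of 888 genes stayed within 1.5 times under each other normalization, filter, moderation and weighting tried, from 870 with only the compared surfaces in the fit to 1144 with array weights. It was 732 with only plastic A, P and Z. With every entry tested, 1029 entries were called and 704 of the 888 genes kept their call. The count was 316 with a 2-fold minimum added. With the letter as a fixed replicate block 1072 genes were called, of which 750 were among the 888, and with a random block 1084, which held all 888. The replicate block ended 3 of the calls of 157 printed genes, named beside their results. Leaving out 1 array gave from 552 to 732 genes, from 262 to 343 higher and from 273 to 398 lower, and 116 of the 157 printed calls held in all 7 such fits. No called gene changed direction under any alternative. For the 887 called genes whose surfaces did not overlap, this was fixed in advance in the fits that left out an array. The genes that also differed from Matrigel numbered 35 with the fixed block and from 33 to 106 when 1 array was left out, where leaving out a Matrigel array was added after seeing the data. Near 0 the sign is not determined. With the fixed block Col1a1 turned to -0.01 and Vim to -0.07. With only plastic A, P and Z they were -0.02 and -0.06, and Vim was -0.01 with the random block or repeated quantile normalization and -0.02 with array weights. Leaving out 1 array gave from -0.06 to 0.17 for Col1a1, from -0.06 to 0.10 for Vim, from -0.06 to 0.11 for Itga10, from -0.03 to 0.45 for Itga11, from -0.21 to 0.31 for Pparg and from -0.14 to 0.24 for Ptprc. With 3 and 4 arrays, a p above the threshold does not show that values are alike, and levels under log2 4.25 carry little signal over background.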
